A study of Mus musculus with 24 samples.

Results

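The subject is the set of serotonin (5-hydroxytryptamine) receptor genes of mouse prefrontal cortex, across early-life stress and a bacterial supplement. Its members were chosen by gene name: Htr1a, Htr1b, Htr1f, Htr2a, Htr2c, Htr3a, Htr4, Htr5a, Htr6 and Htr7, which are 10 of the 45777 genes in the table. All 10 were among the 18380 genes with enough reads to be tested. The tissue came from wild-type males, all adult, and was sequenced as 24 RNA-seq libraries in 4 groups of 6. Control mice received no treatment. MS mice had undergone maternal separation, in which young pups are repeatedly taken from their mother. The Control_EC12 and MS_EC12 groups were those same rearings given EC-12, a preparation of heat-killed Enterococcus faecalis, for 5 weeks. The study, by its title, concerns social deficits caused by maternal separation, and the 4 groups allow the effect of separation, of the supplement and of their combination to be compared. Nothing in the labels states one animal per library, nor the age in weeks. The p-values therefore measure only how far these libraries spread, which may in part be technical.

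Serotonin is made by neurons of the raphe nuclei in the brainstem, whose axons reach the cortex, so the cortex holds mainly the receptors and not the cells that make the transmitter. The Htr1 and Htr5 receptors couple to inhibitory Gi/o proteins and lower cyclic AMP. Htr2 receptors couple to Gq and phospholipase C, Htr3a forms a cation channel opened directly by serotonin, and Htr4, Htr6 and Htr7 couple to Gs and raise cyclic AMP. Htr1b sits largely on axon terminals, where it lowers transmitter release. Htr2a is the receptor of cortical pyramidal neurons through which classical hallucinogens act, and Htr3a marks a class of cortical interneurons.

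The stretch before the transcription start is shown for 2 receptors on which the results turn. Of the receptors that passed with the supplement averaged over rearing, Htr1b alone still passed when a GC-linked property of the libraries alone was taken into account. In fits with that property and a further term, Htr1b did not pass. The level of Htr2a separated libraries by that property without overlap. Both stretches are the 250 bases upstream of the RefSeq start in GRCm38.p6, 5′ to 3′ on the strand of the gene, chr9:81633833-81634082 on the minus strand for Htr1b and chr14:74640624-74640873 on the plus strand for Htr2a. Capitals mark matches, on either strand, to the letters of a GC box (GGGCGG) or a glucocorticoid receptor half-site (TGTTCT).
Htr1b: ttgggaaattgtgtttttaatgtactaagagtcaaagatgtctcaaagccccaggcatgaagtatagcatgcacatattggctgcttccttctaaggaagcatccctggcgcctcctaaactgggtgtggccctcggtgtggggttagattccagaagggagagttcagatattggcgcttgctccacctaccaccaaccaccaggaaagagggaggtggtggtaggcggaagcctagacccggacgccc
Htr2a: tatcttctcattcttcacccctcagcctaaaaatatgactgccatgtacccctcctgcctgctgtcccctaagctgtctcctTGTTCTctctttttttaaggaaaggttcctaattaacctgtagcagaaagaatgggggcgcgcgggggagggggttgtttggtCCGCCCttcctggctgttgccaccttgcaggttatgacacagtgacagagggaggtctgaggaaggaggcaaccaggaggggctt
The Htr2a stretch held 1 match to each of these motifs and the Htr1b stretch held neither. Of the 10 receptors, 8 had an entry in the promoter table, with 9 entries in all. The GC box, found in 32.7% of 32851 mouse promoters, was also in stretches of Htr1a and Htr6. The half-site was in 16.1% of all promoters and in that of Htr2a alone among the 9. The letters of the cAMP response element (TGACGTCA, 1.55% of all promoters), the E-box (CACGTG, 6.02%) and the TATA box (TATAAA, 12.4%) were in none of the 9. These are matches of letters in a short window, and a match or its absence does not show whether a factor binds.

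None of the 10 receptor genes overlaps a protein-coding gene in RefSeq; non-coding genes overlap Htr1b, Htr3a and Htr4, small RNAs lie inside Htr2c, and whether counting used the strand is not given in the sources used here. Libraries held 26250197 to 39252382 counts. One property of the libraries touched most receptors. For each library, the deviation of log2 CPM (CPM being counts scaled to library size) of all genes from their means was regressed on transcript GC content. This GC slope was above 0 in 7 libraries, replicate 3 of MS, replicates 3 and 4 of Control_EC12 and replicates 3, 4, 5 and 6 of MS_EC12, and below 0 in the other 17. In units of log2 CPM per 10 percentage points of GC, it averaged -0.121 ± 0.0251 in Control, -0.104 ± 0.185 in MS, -0.00321 ± 0.238 in Control_EC12 and 0.228 ± 0.333 in MS_EC12 (SD, n = 6 each). No Control library had a slope above 0, so the groups can be compared within the 17 libraries of negative slope but not within the 7. The 17 were 6 of Control, 5 of MS, 4 of Control_EC12 and 2 of MS_EC12. Any comparison with MS_EC12 among them therefore rests on 2 libraries of that group. As to tissue, the excitatory neuron markers Slc17a7 and Camk2a were abundant, at 948 to 1591 and 2310 to 3754 CPM over the 24 libraries, while the raphe list (Tph2, Slc6a4, Fev and Slc18a2) summed to 1.30 to 3.34 CPM and Fev, which defines serotonin neurons, had at most 3 counts in any library. Genes of striatum and olfactory bulb, which border the prefrontal cortex, were present and are given beside the results they move with.

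Per transcript length, Htr2c and Htr2a were the most abundant. On the deposited TPM scale, Htr2c led with 29.9 ± 7.71 and Htr2a followed with 16.7 ± 5.97 (SD, n = 24). Htr1b at 10.7 ± 2.85, Htr1a at 10.2 ± 1.61 and Htr5a at 9.39 ± 1.36 formed a middle tier of inhibitory receptors. Below them lay Htr3a at 6.50 ± 1.19, Htr7 at 5.97 ± 0.832, Htr6 at 3.97 ± 0.604, Htr1f at 3.11 ± 1.08 and Htr4 at 2.44 ± 0.874 TPM. The ranges of every pair of neighbours in this order overlapped. Htr2c was nevertheless above Htr2a in 24 of 24 libraries, and Htr7 was above Htr6 in 23. Htr1b exceeded Htr1a in 13 libraries and Htr3a exceeded Htr7 in 14, so neither pair had a steady order over the 24 libraries together. In Control alone, Htr1b at 11.4 to 13.5 TPM lay above Htr1a at 8.61 to 11.2 without overlap. Within the groups, 8 receptors kept their rank in Control, MS and MS_EC12 and 7 in Control_EC12. Htr1b lay above Htr1a in Control and MS, below it in MS_EC12, and below both Htr1a and Htr5a in Control_EC12. Summed over the 10 receptors, TPM came to 108 ± 6.50 in Control, 116 ± 15.1 in MS, 89.7 ± 15.6 in Control_EC12 and 81.7 ± 12.6 in MS_EC12 (SD, n = 6). The highest library of Control_EC12, at 102.2 TPM, and of MS_EC12, at 102.4, barely passed the lowest of Control, at 102.2, while MS reached down to 91.7 and overlapped both supplemented groups widely. These sums have 2 limits. On log2(TPM + 0.1) the median change of all tested genes was itself -0.102 in MS_EC12 and -0.0426 in Control_EC12, each against Control. On counts it was 0.00745 and 0.00989. The largest terms of the sum, Htr2c and Htr2a, also moved with GC slope.

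**Figure D1:**
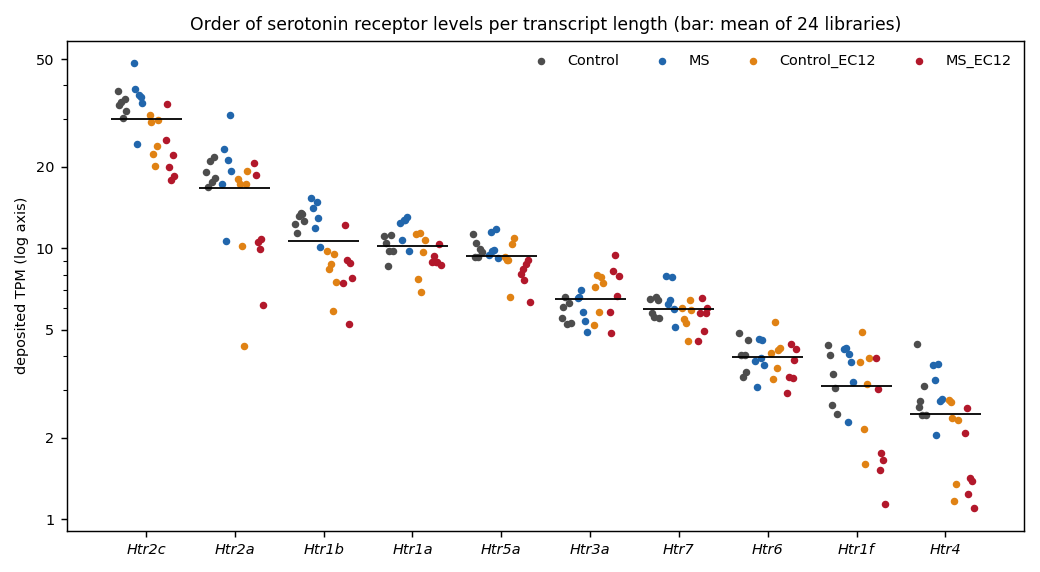
Deposited TPM of each receptor on a log axis, 1 point per library coloured by group, with a bar at the mean of 24 libraries. Receptors are ordered by mean from Htr2c (29.9 TPM) to Htr4 (2.44 TPM), and neighbours overlap.

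Maternal separation without supplement left all 10 receptors short of the test, and the supplement was accompanied by lower Htr1b, Htr2c and Htr4 and higher Htr3a. A receptor passed with an adjusted p under 0.05 in edgeR's quasi-likelihood test with Benjamini-Hochberg adjustment over all 18380 genes. In MS against Control, 0 of 10 receptors passed, against 0.0326% of all genes. At an unadjusted p under 0.05 there was 1 receptor, Htr1a, and DESeq2 called 0. In Control_EC12 against Control, 0 passed (0.0218% of all genes), 3 had an unadjusted p under 0.05 and DESeq2 called 1, Htr1b, among 74 genes in all. In MS_EC12 against MS, 0 passed (0.163% of all genes), although 8 had an unadjusted p under 0.05. DESeq2 called 5, all lower, and called 1894 genes in all where edgeR called 30. In MS_EC12 against Control, 4 receptors passed, where 14.1% of all genes did: 1 was higher (7.31% of genes were) and 3 were lower (6.8% of genes were). Higher genes made up 51.8% of those calls, and 73.4% under upper-quartile scaling. In MS_EC12 against Control_EC12, 0 passed (0.261% of all genes), 0 had an unadjusted p under 0.05 and DESeq2 called 0.

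Averaged over both rearings, the supplement compared with none gave 4 of 10 receptors, beside 7.88% of all genes. Htr3a was higher, as were 4.59% of genes, and Htr1b, Htr2c and Htr4 were lower, as were 3.29% of genes. Higher genes made up 58.3% of these calls, 79.5% under upper-quartile scaling and 47% in DESeq2. The median log2 fold change of the 10 receptors was -0.245, against 0.02 over all genes tested, and 2 of the 10 values were positive. Averaged over supplement, separation gave 0 of 10 (0.288% of all genes), with 0 at an unadjusted p under 0.05 and 0 in DESeq2. The interaction, which asks whether the effect of the supplement differed between rearings, gave 0 of 10 (0.0109% of all genes), again with 0 at an unadjusted p under 0.05 and 0 in DESeq2. The comparisons share libraries: Control serves 3 of them and the averages use all 24, so they do not support one another independently.

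**Figure D2:**
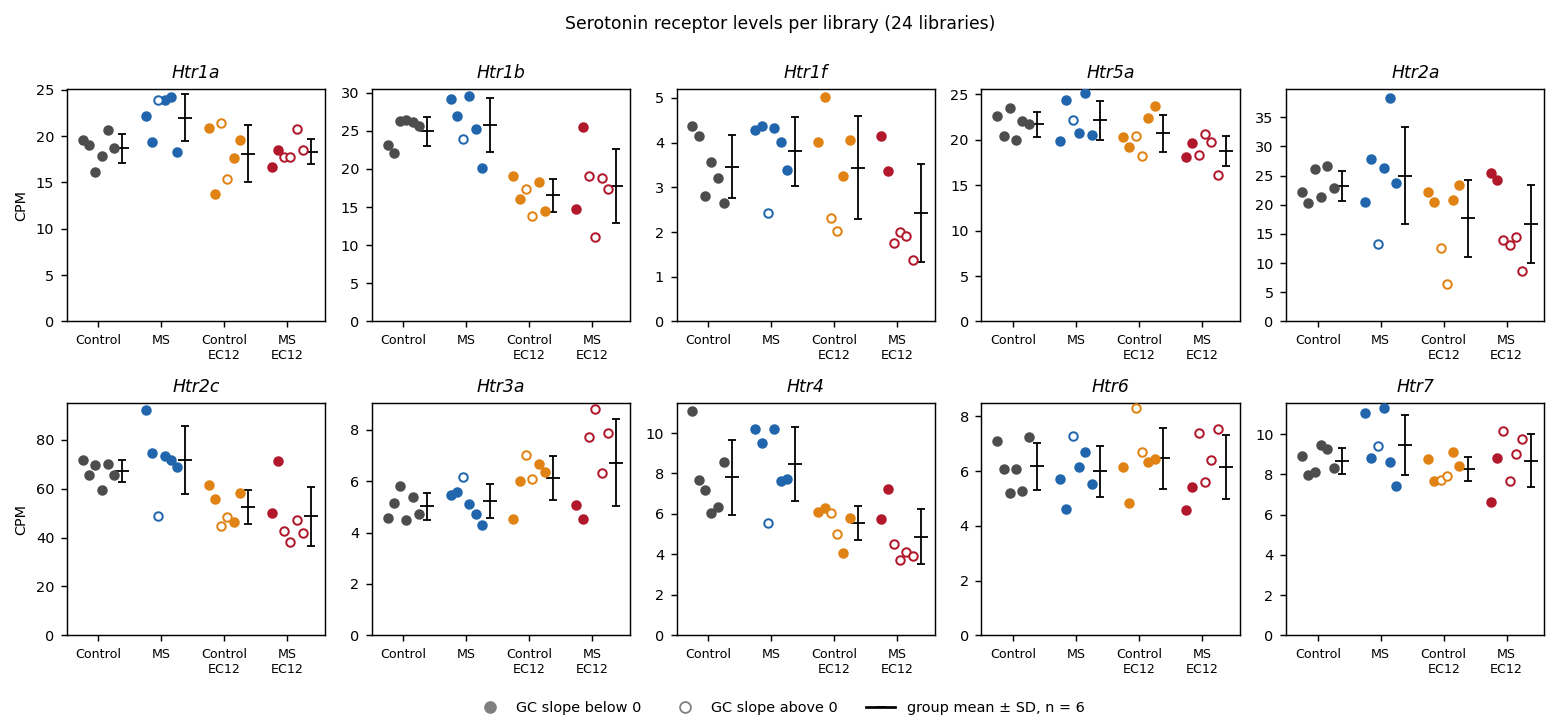
CPM of each receptor per library by group, with the group mean and SD (n = 6); open circles are the 7 libraries with a GC slope above 0. Htr1b lies at 13.8 to 19.1 CPM in Control_EC12 and at 22.1 to 26.4 in Control, and open circles lie low for Htr1f and Htr2a.

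Htr1b (chr9:81628291-81633832 in GRCm38.p6), the presynaptic inhibitory receptor, was lower with the supplement in both rearings. Its CPM had a lowest, median and highest value of 22.1, 25.9 and 26.4 in Control, 20.1, 26.1 and 29.5 in MS, 13.8, 16.7 and 19.1 in Control_EC12, and 11.1, 18.04 and 25.5 in MS_EC12. Every Control_EC12 library lay below every Control library, and MS_EC12 overlapped both Control and MS through 1 library, replicate 2, at 25.5 CPM. The supplement effect averaged over rearing came to -0.57 ± 0.10 on the log2 scale (SE, with adjusted p = 0.00989), and 24 of 24 refits without 1 library kept the call. By rearing, it was -0.59 ± 0.14 for Control_EC12 against Control (adjusted p = 0.116) and -0.54 ± 0.14 for MS_EC12 against MS (adjusted p = 0.0754). Neither of these passed alone. In bulk tissue, fewer cells that hold the transcript and less of it per cell cannot be told apart. The difference between the rearings, the interaction, was 0.06 ± 0.19 (adjusted p = 0.931).

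The Htr1b difference was the one that was least altered when GC slope was taken into account. With the slope as a covariate the averaged effect was -0.52 ± 0.10 (adjusted p = 0.0308), and Control_EC12 against Control came to -0.57 with an adjusted p of 0.0413. Among the 17 libraries of negative slope the averaged effect was -0.47 ± 0.10 (adjusted p = 0.0482), with 14.5 to 25.5 CPM in 6 supplemented libraries and 20.1 to 29.5 CPM in 11 others. MS_EC12 against Control, at -0.49 ± 0.14 (adjusted p = 0.035), lost its call with the covariate (-0.41, adjusted p = 0.281) and when any Control library or replicate 3, 4, 5 or 6 of MS_EC12 was left out (adjusted p up to 0.102). Separation gave 0.05 ± 0.14 in MS against Control, with a 95% interval of -0.23 to 0.33 from the SE and 20 residual degrees of freedom.

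Htr1a and Htr5a, also Gi/o-coupled, moved less with the supplement than Htr1b did. Htr1a, the inhibitory receptor of pyramidal cell bodies and of the raphe neurons themselves, had a median of 18.9 CPM in Control (range 16.2 to 20.7), 23.01 in MS (18.3 to 24.2), 18.6 in Control_EC12 (13.7 to 21.4) and 18.1 in MS_EC12 (16.7 to 20.8). MS lay highest, with all 4 groups overlapping. Its difference of 0.24 ± 0.10 (log2, SE) in MS against Control, the only one of the 10 with an unadjusted p under 0.05, had an adjusted p of 1 in edgeR's quasi-likelihood test. Averaged over rearing, the supplement difference was -0.15 ± 0.07 (adjusted p = 0.132). Htr5a, a Gi/o-coupled receptor found almost only in brain, varied least from library to library, with ranges of 19.9 to 23.5, 19.9 to 25.1, 18.2 to 23.8 and 16.1 to 20.7 CPM in Control, MS, Control_EC12 and MS_EC12. The MS_EC12 group lay lowest, at -0.21 ± 0.08 against Control (adjusted p = 0.0645) and -0.24 ± 0.08 against MS (adjusted p = 0.0865), and did not pass in either. Averaged over rearing, Htr5a was at -0.15 ± 0.06 (adjusted p = 0.0741), and it passed in DESeq2 and in the tests on filtered TPM (adjusted p 0.0465 and 0.0482). On filtered TPM the median of all tested genes was itself -0.059 with the pseudocount 0.1 and -0.0411 with 1, against 0.019 on counts.

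Htr1f, the inhibitory receptor targeted by lasmiditan-type migraine drugs, was scarce, and its level split by the GC slope of the library. It had 2.65 to 4.38 CPM in Control, 2.44 to 4.37 in MS, 2.02 to 5.01 in Control_EC12 and 1.37 to 4.16 in MS_EC12. The 7 libraries of positive GC slope held 1.37 to 2.44 CPM and the other 17 held 2.65 to 5.01, with no overlap. Of those 7, 4 were of MS_EC12, 2 of Control_EC12, 1 of MS and 0 of Control, so slope and group were not independent. The supplement difference was -0.654 ± 0.245 for MS_EC12 against MS (adjusted p = 0.099). For Control_EC12 against Control it was -0.0174 ± 0.243 (adjusted p = 0.982), and the interaction was -0.637 ± 0.345 (adjusted p = 0.83). Averaged over rearing the difference with supplement was -0.34 ± 0.17 (adjusted p = 0.171). With the slope as a covariate the averaged difference was -0.0047 ± 0.11, and within the 17 libraries it was 0.05 ± 0.12.

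Among the Gq-coupled receptors, Htr2c was lower with the supplement and Htr2a did not pass. Htr2c (chrX:146962464-147197277), whose transcripts undergo RNA editing and which is by far the strongest in choroid plexus, had a lowest, median and highest CPM of 59.5, 67.6 and 71.9 in Control, 48.7, 72.7 and 92.4 in MS, 44.8, 52.0 and 61.7 in Control_EC12, and 38.3, 45.0 and 71.5 in MS_EC12. The supplemented groups lay lower, and every pair of a supplemented with a non-supplemented group overlapped. The averaged effect was -0.46 ± 0.09 (adjusted p = 0.0177) and was called in 24 of 24 refits without 1 library. It was -0.35 ± 0.13 for Control_EC12 against Control (adjusted p = 0.431), -0.56 ± 0.13 for MS_EC12 against MS (adjusted p = 0.0704) and -0.46 ± 0.13 for MS_EC12 against Control (adjusted p = 0.0359). The last call was lost without any 1 of the Control libraries or replicates 3 to 6 of MS_EC12 (adjusted p up to 0.11).

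Part of the Htr2c difference moved with GC slope. The averaged effect was -0.28 ± 0.07 (adjusted p = 0.079) with the slope as a covariate and -0.30 ± 0.08 (adjusted p = 0.08) among the 17 libraries, where the supplemented libraries held 46.2 to 71.5 CPM and the others 59.5 to 92.4. Choroid plexus is the other candidate tissue for this gene, so its defining gene Ttr (transthyretin) was read in each library. Ttr was at or below 4.64 CPM in 22 libraries, at 54.8 in replicate 3 of MS and at 642 in replicate 6 of MS_EC12. The whole list of 10 choroid plexus genes summed to 188 to 214 CPM in Control and 182 to 232 in MS. It summed to 116 to 216 CPM in Control_EC12 and 122 to 900 in MS_EC12. Most of the mean sum was Enpp2 in Control (185.6 of 201.5 CPM), MS (177.2 of 203.3) and Control_EC12 (168.6 of 183.8). In MS_EC12, Enpp2 averaged 148 of 279.8 CPM and Ttr 108.6. The sums outside MS_EC12 therefore describe mainly Enpp2 and not the list as a whole. Of the 7 tested genes of the list, 0 passed in the averaged comparison, where 7.88% of all genes did. In MS_EC12 against Control 2 were higher, as were 7.31% of all genes. The 2 libraries with raised Ttr held 48.7 and 42.1 CPM of Htr2c, the lowest value of MS and the second lowest of MS_EC12. Both were also among the 7 libraries of positive GC slope, all of which held 38.3 to 48.7 CPM of Htr2c. What raised Ttr and the slope each did to Htr2c therefore cannot be told apart in them.

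Htr2a (chr14:74640874-74706859) varied widely between libraries, and that spread followed GC slope. It had 20.2, 22.6 and 26.6 CPM (lowest, median, highest) in Control, 13.2, 25 and 38.2 in MS, 6.47, 20.7 and 23.4 in Control_EC12, and 8.69, 14.2 and 25.5 in MS_EC12. The 7 libraries of positive slope held 6.47 to 14.4 CPM and the other 17 held 20.2 to 38.2, again without overlap and across 3 of the 4 groups. The averaged supplement difference of -0.49 ± 0.19 did not pass (adjusted p = 0.0859), and DESeq2 did call it. With the slope as a covariate it was -0.14 ± 0.14 (adjusted p = 0.65), and in MS_EC12 against Control the sign changed, from -0.48 ± 0.27 to 0.04 ± 0.20.

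Htr3a (chr9:48899213-48911152), the ion-channel subunit, was the one receptor that was higher with the supplement, and this call was the least stable. Its CPM was 4.51 to 5.82 (median 4.93) in Control, 4.28 to 6.18 (median 5.30) in MS, 4.54 to 7.01 (median 6.23) in Control_EC12 and 4.51 to 8.83 (median 7.02) in MS_EC12. All 4 groups overlapped. The averaged effect was 0.32 ± 0.10 (adjusted p = 0.0481), and MS_EC12 against Control gave 0.42 ± 0.14 (adjusted p = 0.0489). The averaged call was kept in 4 of 24 refits without 1 library, those without replicate 3 of MS, replicate 1 of Control_EC12 and replicates 1 and 2 of MS_EC12, and its adjusted p reached 0.0928 in the others. The call in MS_EC12 against Control was kept in 6 of 24 (adjusted p up to 0.135). Averaged, it was 0.14 ± 0.09 (adjusted p = 0.457) with GC slope as a covariate and 0.08 ± 0.09 among the 17 libraries of negative slope. It also failed in all 3 tests on TPM (adjusted p 0.123 to 0.19). In those tests 15.6% to 18.9% of all calls were higher, against 58.3% on counts, so the loss is not particular to Htr3a. The class of interneurons that Htr3a marks did not show one direction. Of 8 tested genes of that list, including Vip, Reln, Lamp5 and Cck, 5 values were positive in the averaged comparison. There 0 passed higher and 1 lower, as did 4.59% and 3.29% of all genes. The lower gene was Cnr1, the cannabinoid receptor (adjusted p = 0.0274 in edgeR's quasi-likelihood test). The list summed to 784 ± 13.2 CPM in Control and 838 ± 66.4 in MS_EC12.

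Of the Gs-coupled receptors, Htr4 was lower with the supplement, and Htr6 and Htr7 did not pass in any comparison. Htr4, which raises cyclic AMP in response to serotonin and binds the membrane partner p11 (S100a10), had a lowest, median and highest CPM of 6.06, 7.42 and 11.1 in Control, 5.55, 8.61 and 10.2 in MS, 4.07, 5.92 and 6.31 in Control_EC12, and 3.71, 4.31 and 7.21 in MS_EC12. The supplemented groups lay lower, and each overlapped both groups without supplement. Its averaged effect, -0.65 ± 0.13 (adjusted p = 0.0142), was called in 24 of 24 refits without 1 library. It was -0.49 ± 0.18 for Control_EC12 against Control (adjusted p = 0.4), -0.80 ± 0.18 for MS_EC12 against MS (adjusted p = 0.0664) and -0.68 ± 0.18 for MS_EC12 against Control (adjusted p = 0.0312). The last call was kept in 15 of 24 refits and was lost without replicate 1, 2, 3, 5 or 6 of Control or 3, 4, 5 or 6 of MS_EC12. With GC slope as a covariate the averaged effect was -0.48 ± 0.13 (adjusted p = 0.0738), and among the 17 libraries it was -0.49 ± 0.13 (adjusted p = 0.0875), with 4.07 to 7.21 CPM in supplemented libraries and 6.06 to 11.1 in the others.

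Htr6, a receptor that raises cyclic AMP and is nearly confined to the brain, had group medians of 6.08 CPM in Control, 5.93 in MS, 6.39 in Control_EC12 and 6.01 in MS_EC12, over a total range of 4.59 to 8.31. The averaged supplement difference was 0.05 ± 0.10, with a 95% interval of -0.15 to 0.26. Htr7, the Gs-coupled receptor also linked to circadian timing, had medians of 8.61, 9.13, 8.18 and 8.92 CPM in the same order, over 6.63 to 11.3. Its averaged supplement difference was -0.10 ± 0.08, with an interval of -0.25 to 0.06. For separation averaged over supplement, the values of the 10 receptors ran from -0.19 ± 0.17 (Htr1f) to 0.13 ± 0.07 (Htr1a).

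**Figure D3:**
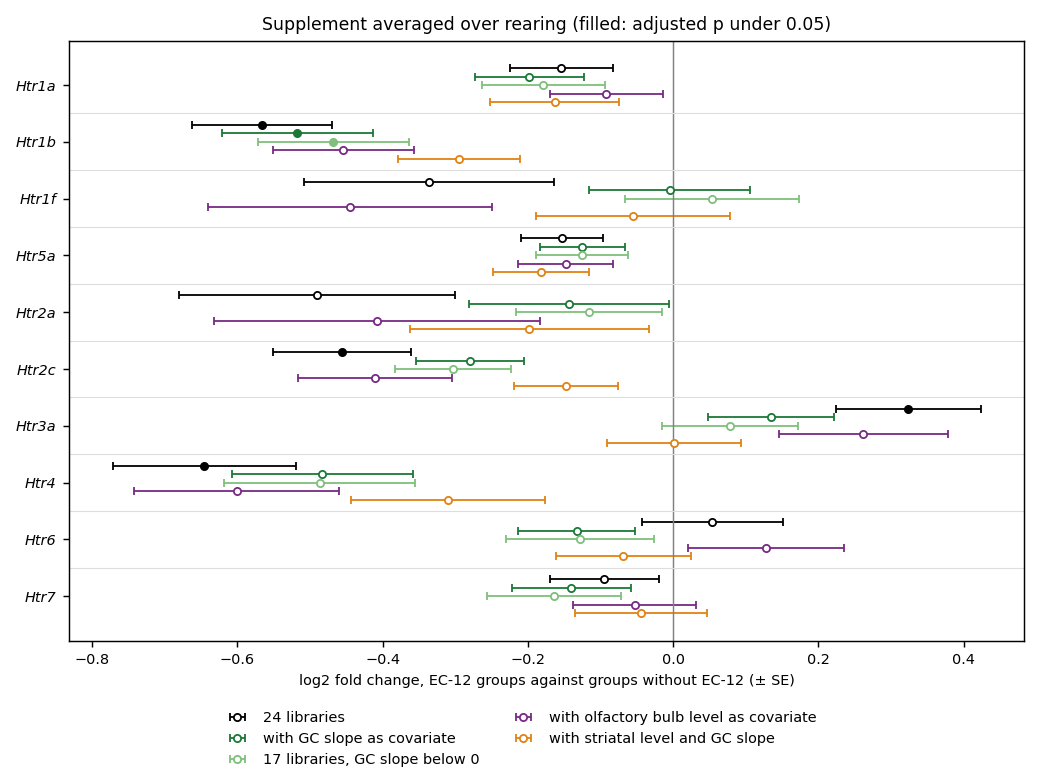
Log2 fold change (± SE) of each receptor for supplement against none, averaged over rearing, in the 24 libraries and with 4 alternative treatments of the libraries; filled points have an adjusted p under 0.05. Htr1b, Htr2c, Htr3a and Htr4 are filled in the 24 libraries, Htr1b alone with GC slope as a covariate or in 17 libraries, and none with the olfactory bulb covariate or with striatal level and GC slope together; the fit with striatal level alone, in which 7 passed, is not drawn.

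How strongly each receptor moved with GC slope followed the GC content of its own transcript in part. Over 24 libraries, with group means removed, the correlation of log2 CPM with the slope was -0.845 for Htr1f (transcript GC 39.4%), -0.756 for Htr2a (41.3%) and -0.721 for Htr2c (42.1%). It was 0.728 for Htr6 (63.1%) and 0.713 for Htr3a (53.4%). For the receptors between them in GC it was -0.5 for Htr4 (44.9%), -0.162 for Htr1b (45.2%), -0.222 for Htr5a (45.5%), 0.26 for Htr1a (49.1%) and 0.258 for Htr7 (49.2%). The median tested gene had a transcript GC of 49.9%. These correlations are descriptions, since the slope is computed from all genes of the same libraries. What gave rise to the slope was not tested.

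**Figure D4:**
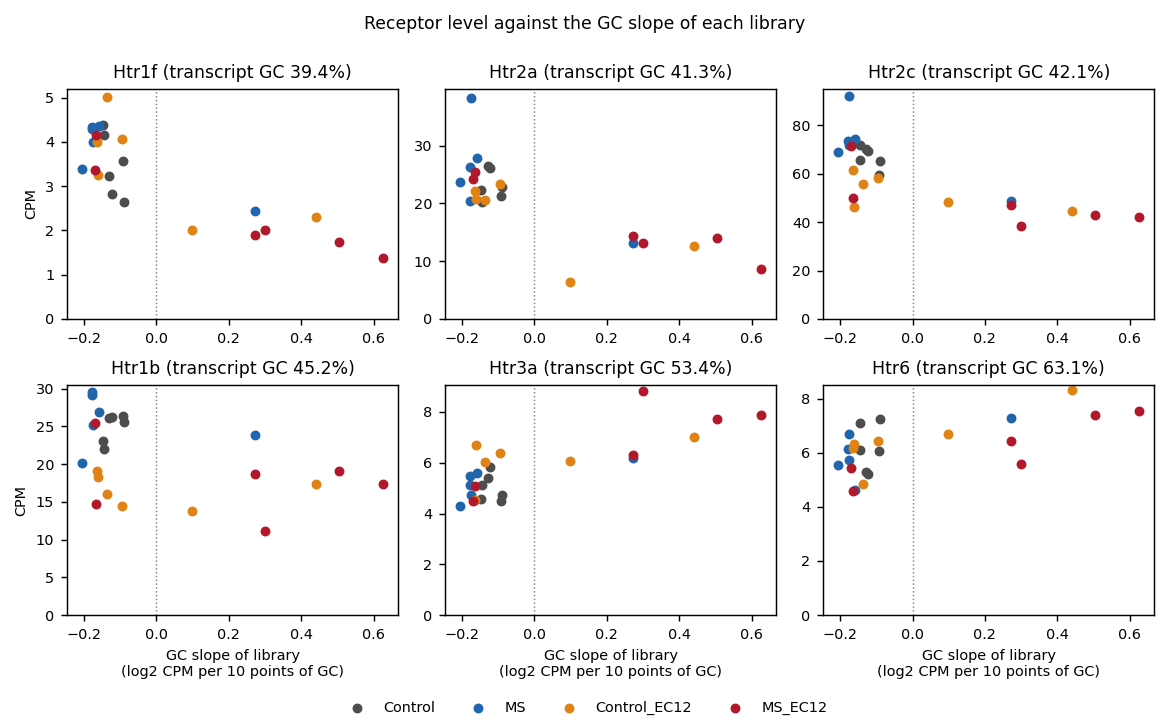
CPM of 6 receptors (vertical axis) against the GC slope of each library (log2 CPM per 10 percentage points of GC), coloured by group. Htr1f and Htr2a of low transcript GC are lower on the right of the dotted line at 0, and Htr3a and Htr6 of high transcript GC are higher. Htr1b averages 17.3 CPM on the right against 22.9 on the left. These averages pool groups, and the right holds 4 libraries of MS_EC12, 2 of Control_EC12, 1 of MS and 0 of Control. With group means removed, the correlation of Htr1b with the slope is -0.162.

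Of the genes of bordering tissue, Drd1 moved with Htr1b, Htr2c and Htr4. Drd2 and Ppp1r1b of the striatal list correlated positively with all 3 only once GC slope was removed. Drd1, the D1 dopamine receptor that is strongest in striatum, averaged 56.7 CPM in Control, 61.7 in MS, 47.9 in Control_EC12 and 47.0 in MS_EC12. With group means removed, its correlation over 24 libraries was 0.723 with Htr1b, 0.596 with Htr4 and 0.5 with Htr2c, and 0.725, 0.66 and 0.671 once a linear fit on GC slope was also removed. Drd2, of the same list, averaged 40.9, 44.9, 38.6 and 47.8 CPM in that order of groups and correlated at 0.434 with Htr1b, -0.142 with Htr4 and -0.209 with Htr2c, or 0.745, 0.305 and 0.541 with the slope removed. Ppp1r1b, also striatal, was at 0.26, -0.21 and -0.341, or 0.611, 0.317 and 0.485. The cortical marker Slc17a7 ran against all 3 receptors, at -0.379, -0.674 and -0.785, or -0.414, -0.525 and -0.508 with the slope removed. Its list of cortical excitatory genes showed no single direction. Of 11 tested, 5 values were positive in the averaged comparison, and 0 passed higher and 2 lower, as did 4.59% and 3.29% of all genes. The library of MS_EC12 with the highest Htr1b, Htr2c and Htr4, replicate 2, also had the highest Drd1 of that group. Of the striatal list, 1 of 10 genes passed with the supplement averaged over rearing, where 7.88% of all genes did. This was Pde10a, which was lower (-0.36, adjusted p = 0.0479 in edgeR's quasi-likelihood test). In the list as a whole, 3 of 10 values were positive. Its sum ran from 1522 to 1825 CPM in Control, 1581 to 2142 in MS, 1062 to 1974 in Control_EC12 and 1057 to 2313 in MS_EC12. Values of the olfactory bulb list were positive. Its 6 measured genes summed to 32.3 to 195 CPM in Control, 21.9 to 159 in MS, 116 to 378 in Control_EC12 and 51.3 to 310 in MS_EC12. In the averaged comparison 6 of 6 values were positive and 0 passed, where 7.88% of all genes did (6 had an unadjusted p under 0.05).

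Refits with these levels as covariates, chosen after the data were seen, moved the calls. With the mean striatal level, the averaged effects were -0.49 for Htr1b, -0.45 for Htr2c, -0.63 for Htr4 and 0.33 for Htr3a, and all 4 passed (adjusted p 0.00426 to 0.0209), as did Htr1f, Htr2a and Htr5a, which were lower. That fit called 6476 of the 18380 genes. With the mean olfactory bulb level they were -0.45, -0.41, -0.60 and 0.26, and none passed (adjusted p 0.0925 to 0.175). That fit called 0 of all genes. With striatal level and GC slope together they were -0.30, -0.15, -0.31 and 0.00, and none passed (adjusted p 0.213 to 0.997). The part of dissection in these differences was not tested beyond these refits.

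**Figure D5:**
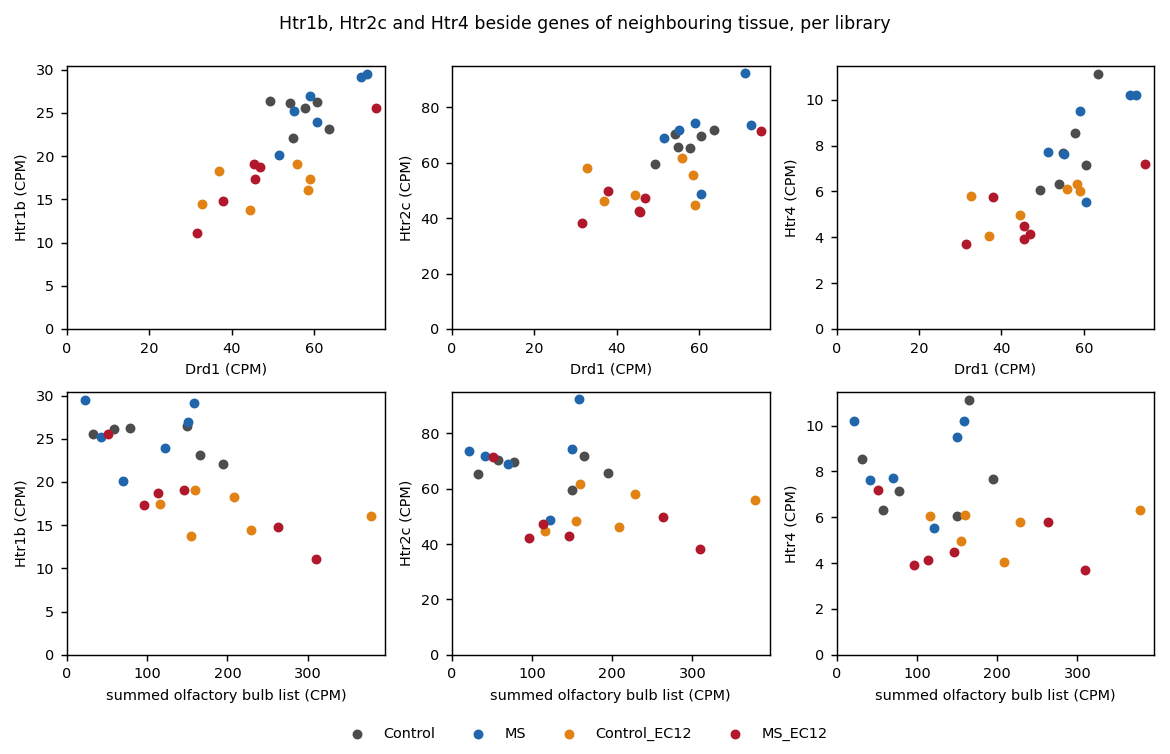
CPM of Htr1b, Htr2c and Htr4 per library against Drd1 (upper row) and the summed olfactory bulb list (lower row), in CPM and coloured by group. Libraries with more Drd1 have more of all 3 receptors (correlations of 0.5 to 0.723 with group means removed). Drd2, not drawn, correlates at -0.209 with Htr2c and -0.142 with Htr4, or at 0.541 and 0.305 once GC slope is also removed. Supplemented libraries reach the highest olfactory sums, 378 and 310 CPM.

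The receptors moved together only in part. With group means removed, the closest pairs over 24 libraries were Htr1f with Htr2a (r = 0.782) and Htr2c with Htr4 (r = 0.776). After a linear fit on GC slope was also removed these came to 0.409 and 0.693. Htr1b with Htr7 had 0.596 before and 0.668 after that step. Among all tested genes, the closest to Htr2a were Grin2b (0.984), an NMDA receptor subunit, Ank2 (0.98) and Tmod2 (0.97). Pde10a, the phosphodiesterase of striatal projection neurons, was closest to Htr1b (0.837), and Scn9a, a sodium channel, was closest to Htr2c (0.923). For the others, the closest were Qser1 for Htr1f (0.969), H2-D1 for Htr3a (0.899), Mir421 for Htr4 (0.806), Kcnk13 for Htr6 (0.854), Vgll3 for Htr5a (0.787) and Ptgs1 for Htr1a (0.703). Htr7 was closest to Dnah6 (0.827) and Dnah3 (0.81), both axonemal dyneins of motile cilia. Of the 30 genes named as the closest 3 per receptor, 9 were still so named after the slope was removed. The points share library preparation, depth and base composition, and the values carry no test.

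The genes of serotonin signalling around the receptors are given beside the share of all genes that passed. In MS against Control, 0 passed in any of the 4 lists, which hold other receptors, serotonin synthesis and breakdown, effectors, and receptor partners, and 0 had an unadjusted p under 0.05. Of 13 tested genes for serotonin synthesis, storage, uptake and breakdown, 0 passed in the averaged supplement comparison (7.88% of all genes) and 1 in MS_EC12 against Control (14.1%), Spr, which makes the tetrahydrobiopterin cofactor of serotonin synthesis (0.43 ± 0.11, adjusted p = 0.0312). Maoa, the enzyme that degrades serotonin, was at -0.36 ± 0.15 (adjusted p = 0.0912) and did not pass there. Of 24 G proteins, effectors and channels, 0 were higher and 4 were lower with the supplement averaged over rearing, where 4.59% and 3.29% of all genes were. The lower genes included Gnal (-0.32 ± 0.08, adjusted p = 0.0308), the Gs-like protein of striatum and olfactory neurons, Gnaq (-0.21 ± 0.06, adjusted p = 0.0412), through which Htr2 receptors signal, and Plcb1 (-0.33 ± 0.10, adjusted p = 0.05 after rounding), a phospholipase C. The median of the 24 was -0.07 against 0.02 for all genes tested. In MS_EC12 against Control, 2 of the 24 passed, Gnaq and Plcb1, both lower, where 6.8% of all genes were lower.

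Of 13 receptor partners, desensitising proteins and editing enzymes, 1 passed in the averaged comparison, where 7.88% of all genes did: Rgs4, which shortens Gi and Gq signals (-0.25 ± 0.07, adjusted p = 0.0411). In MS_EC12 against Control, where 14.1% of all genes passed, 2 were higher, S100a10 (0.38 ± 0.13, adjusted p = 0.0496) and the arrestin Arrb2 (0.26 ± 0.08, adjusted p = 0.0416), and 3 were lower, Rgs4 (-0.33 ± 0.10), Grk5 (-0.23 ± 0.08) and Mpdz (-0.49 ± 0.16), a scaffold that binds Htr2c. The editing enzymes Adar and Adarb1 did not pass in either. Of the 4 other serotonin receptor genes looked up, Htr1d, at 3.01 to 6.18 CPM, and Htr5b, at 0.63 to 2.21 CPM, were tested and did not pass in any comparison. Htr2b and Htr3b did not reach the minimum for testing, at no more than 0.13 and 0.14 CPM in any library.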

How the data were processed

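RNA from prefrontal cortex was extracted with ISOGEN II and made into stranded mRNA libraries, per the labels' protocols. Per the submitters' processing notes, the tools included HISAT2 2.1.0, StringTie 2.1.3b and DESeq2, with Trimmomatic 0.38 and FastQC 0.11.7 also listed, with mm10 as the build. Their roles and parameters, and the strand setting of counting, are not given in the sources used. The authors deposited a raw read count, an FPKM and a TPM value per gene and library. The deposited counts were tested, the deposited TPM values gave the order of levels and an alternative test on log2(TPM + 1), and the deposited FPKM values were not used. A second deposited sheet was not used. Groups came from the labels, and every column matched 1 sample.

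Genes were kept with edgeR 4.0.16 (R 4.3.3) filterByExpr (minimum count 10, minimum total 15) and scaled by TMM. A single quasi-likelihood fit over all 24 libraries and 4 groups, without covariates, gave every comparison, with Benjamini-Hochberg adjustment over 18380 genes. A prior count of 2 was used for log2 CPM values, and the fit kept edgeR's default. Averaged effects are the mean of the 2 contrasts concerned. Intervals are 95%, from the SE. The code was checked on simulated data. GC content came from the longest transcript per gene and was known for 82.39% of tested genes. RefSeq names and coordinates (GRCm38.p6) matched 99.79% of genes. No pair of libraries agreed within sampling noise (smallest chi-square per gene 5.15). Depth, 26250197 to 39252382 counts, limits the precision of the scarcest receptors, at 53 to 149 counts for Htr1f.

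The rule for named genes took all receptors, pathway genes that passed or were among the 4 of smallest p in their list and comparison, and the 3 genes whose deviations from group means correlated best with each receptor, predicted models excluded. Adar, Adarb1 and Cnr1 were named after their values were seen. For 1 gene of the effector list, the result is not reported here. The members and lists were chosen with earlier results of these data known. Alternatives were DESeq2 1.42.0, edgeR with RLE or upper-quartile scaling, no filter, limma 3.58.1 on log2(TPM + pseudocount), fits of the compared groups only, a replicate block, GC slope as covariate, libraries of negative slope, and leaving out each library. Replicate numbers are shared across groups, but only 13 of 36 same-numbered pairs correlated above 0.1, so the numbers were not taken to pair libraries.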

Additional observations from a re-analysis of the deposited data

Results flagged for a closer look

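Among 40 sets of 6 libraries (10 receptors in 4 groups), 1 library stood further from its group than Dixon's 95% critical value allows. Replicate 2 of MS_EC12 held 71.5 CPM of Htr2c, the highest value of its group. Chance gives such a gap in about 1 of 20 groups. Refits without this library kept the averaged calls of Htr1b, Htr2c and Htr4.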

How the results depend on the processing

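Receptors that passed were counted again under each alternative. MS against Control, MS_EC12 against Control_EC12, the interaction and averaged separation had 0 throughout. In Control_EC12 against Control (0 of 10), DESeq2 and GC slope as covariate each gave 1, Htr1b, of 74 and 133 genes. In MS_EC12 against MS (0 of 10), DESeq2 gave 5, log2(TPM + 1) 2 and the striatal covariate 6, of 1894, 161 and 5182 genes against 30; log2(TPM + 0.1) gave 0 of 5 genes. In MS_EC12 against Control (4 of 10), counts were 0 without the low-count filter, with GC slope, in the 17 libraries of negative slope and with striatal level and GC slope together, and 2 with the olfactory bulb covariate. Averaged over rearing (4 of 10), GC slope and the 17 libraries each gave 1, the striatal covariate 7, DESeq2 6, no filter 3 and TPM 3 or 4 without Htr3a, and the olfactory bulb covariate, or striatal level with GC slope, 0. The 3 tissue covariates were chosen after seeing the data. The causes were not tested.

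The replicate numbers were not taken to pair the libraries, since 13 of 36 same-numbered pairs correlated above 0.1. Every pair of replicate 1 did, at 0.122 to 0.36. Replicate 3 of MS, Control_EC12 and MS_EC12, all of positive GC slope, correlated with one another at 0.435 to 0.575. What libraries of the same number share was not tested. A replicate block gave 5 receptors in MS_EC12 against MS, of 3809 genes. It gave 6 in MS_EC12 against Control and 6 averaged, of 5939 and 4552 genes. Block with GC slope gave 0 in both of the latter. Leaving out 1 library gave 0 to 7 receptors in MS_EC12 against MS, 0 to 5 in MS_EC12 against Control and 3 to 6 averaged. Over all genes, MS_EC12 against MS (30) ran from 0 (without replicate 1, 3 or 4 of Control, 1, 2, 4 or 6 of MS, or 6 of MS_EC12) to 5037 (without replicate 1 of MS_EC12), the averaged count of 1448 ran from 213 (without replicate 5 of MS) to 4600 (without replicate 1 of MS_EC12), and that of MS_EC12 against Control, 2594, from 9 (without replicate 5 of Control) to 6544 (without replicate 1 of MS_EC12). Higher calls were 58.3% of the averaged calls, 79.5% under upper-quartile scaling and 15.6% to 18.9% on TPM; in MS_EC12 against Control they were 51.8%, 73.4% and 14.9% to 16.2%.

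Signs changed in 15 log2 values whose difference exceeded its SE or passed. A further 105 of 1170 values, and 72 of 1920 with 1 library left out, changed sign where the difference was within its SE and passed in neither fit, such as Htr6 with the supplement averaged (0.05, down to -0.133). In the 17 libraries, only 2 of which were MS_EC12, Htr3a was at -0.0751 in MS_EC12 against MS and -0.0648 against Control. In the latter comparison Htr1f was at 0.111 and Htr2a at 0.1. There, Htr4 was at 0.224 in MS_EC12 against Control_EC12 and 0.00642 in the interaction, Htr1f at 0.0532 with the supplement and 0.0583 with separation, and Htr7 at -0.00275 with separation. Striatal level with GC slope gave Htr3a -0.0743 in MS_EC12 against MS, Htr2a 0.00672 in MS_EC12 against Control and Htr1f 0.00393 with separation. In MS_EC12 against Control, Htr2a was at 0.0444 with GC slope and 0.19 with block and GC slope, which gave 0.0896 against MS. Of these, Htr3a in MS_EC12 against Control had passed. Depth limits Htr1f, Htr4 and Htr3a most, at 53, 115 and 125 counts in their lowest libraries.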
